A study of Bos taurus with 9 samples.

Results

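The sites described here are short stretches of chromatin at which a peak of H3K27 acetylation (H3K27ac) was listed in MDBK cells only after butyrate, with no H3K9 acetylation (H3K9ac) peak in either condition. They were chosen by position from 4 peak lists: each is a butyrate H3K27ac peak shorter than 1000 bp on a nuclear chromosome that no control H3K27ac, control H3K9ac or butyrate H3K9ac peak overlapped by 1 bp or more. This gave 85441 sites of 187465 butyrate H3K27ac peaks (45.6%, 95% Wilson interval 45.4 to 45.8), and they are called new sites without H3K9ac from here on. MDBK is an established epithelial line from bovine kidney. The chromatin immunoprecipitation libraries came from cells that received 5 mM butyrate for 24 h and from untreated control cells, with antibodies to H3K9ac, H3K27ac, RNA polymerase II (Pol II) and H3K9me3. Each of the 8 groups was 1 library, so differences between control and butyrate were not checked in replicates, and intervals cover counting error only. Control libraries were run on lane 4 and butyrate libraries on lane 5, so lane and treatment cannot be told apart.

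Acetyl groups on histone H3 are placed by different enzymes at different residues. H3K27ac is written mainly by the coactivators p300 and CBP and marks active enhancers as well as promoters, whereas H3K9ac is written mainly by GCN5 and PCAF and lies largely at active promoters. Histone deacetylases remove both marks, and butyrate, a short-chain fatty acid of microbial fermentation in the rumen, inhibits these enzymes. Pol II marks chromatin that is being transcribed or is ready for it, and H3K9me3 is a mark of silent heterochromatin.

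The steps of the rule show which sites were set aside. Of all butyrate H3K27ac peaks, 126827 (67.7%) had no control H3K27ac peak, and 101282 (54.0%) had no H3K9ac peak in either condition. Among the new peaks, 92605 had no butyrate H3K9ac, and 85802 of these had no control H3K9ac either. The length limit removed 361 more. Just inside the limit, 41 sites were 980 to 999 bp long and 5 of them met a butyrate Pol II peak. Just outside, 35 peaks were 1000 to 1019 bp long and 8 of them met one. The counts of the steps only restate the choice of the sites. The Pol II counts at the limit were not part of the rule, but they are few and were not tested. None of these counts supports anything further.

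Length is tied to the choice of the sites, since a short peak misses other lists more easily, so the lengths are a description. The median of the new sites without H3K9ac was 270 bp (95% binomial interval 269 to 271), the quartiles were 221 and 360 bp, and 10.7% were at 199 bp, the shortest length in the list. Sites of 500 bp or more made up 9.29% of them. Further classes of butyrate H3K27ac peaks under 1000 bp served for comparison. The 32704 new sites with H3K9ac also had no control H3K27ac peak but did carry butyrate H3K9ac, and their median was 359 bp (356 to 362). The 15243 sites also present in control had a control H3K27ac peak and no H3K9ac, and their median was 316 bp (313 to 319). The shares of 500 bp or more were 28.2% and 19.1% in these classes. Although numerous, the new sites without H3K9ac held 33.1% of the bases of the butyrate H3K27ac list, 26.8 Mb in all.

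**Figure D1:**
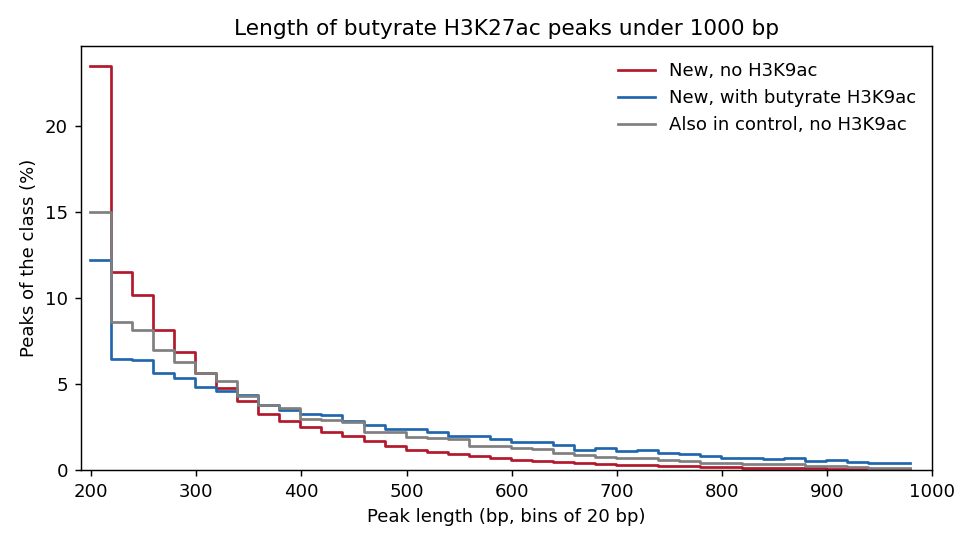
Share of each class (%, y axis) by peak length (bp, bins of 20 bp, x axis) for 3 classes of butyrate H3K27ac peaks under 1000 bp. The red line, new sites without H3K9ac, is highest in the shortest bins and lowest above 400 bp, with medians of 270, 359 and 316 bp for red, blue and grey.

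Pol II and H3K9me3 were not part of the rule, so the next comparison asked whether new sites without H3K9ac differed from the other classes in these lists. A butyrate Pol II peak overlapped 2572 of them (3.01%, 95% Wilson interval 2.90 to 3.13), against 9.41% of all butyrate H3K27ac peaks. Here and below, all butyrate H3K27ac peaks include 9951 peaks of 1000 bp or more, of which 39.4% met butyrate Pol II. The share was 9.40% (9.09 to 9.72) at new sites with H3K9ac and 5.10% at sites also present in control. On the log2 scale the ratio of shares was -1.64 (95% interval -1.72 to -1.57) against new sites with H3K9ac and -0.76 (-0.87 to -0.65) against sites also present in control. New sites without H3K9ac had the lower share on all 30 chromosomes in both comparisons. Because a short peak meets another peak less easily, the shares of the other classes were also weighted to the same distribution of lengths. They then came to 7.24% and 4.59%, both still above 3.01%. When at least 50% of the site had to be covered, the share of new sites without H3K9ac was 1.61%.

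Control Pol II gave a different order of the classes. It overlapped 2949 new sites without H3K9ac (3.45%, 3.33 to 3.58), against 5.67% of all butyrate H3K27ac peaks, 7.81% of new sites with H3K9ac and 2.95% of sites also present in control. New sites without H3K9ac thus stood above the sites also present in control for control Pol II (log2 ratio 0.23, 0.09 to 0.37, higher on 25 of 30 chromosomes) and below them for butyrate Pol II. From control to butyrate the share with Pol II went from 3.45% to 3.01% at new sites without H3K9ac, while it went from 7.81% to 9.40% at new sites with H3K9ac and from 2.95% to 5.10% at sites also present in control. By chromosome, the butyrate share of new sites without H3K9ac was the lower on 18 and the higher on 11 of 30. The Pol II lists held 56225 peaks in control and 31225 after butyrate, and new sites without H3K9ac met 5.19% of the former and 8.17% of the latter. Pol II was met in both conditions by 192 of these sites, which is 6.51% of those with control Pol II and 7.47% of those with butyrate Pol II. The corresponding shares were 20.9% and 12.6% over all butyrate H3K27ac peaks. They were 14.2% and 11.8% at new sites with H3K9ac, and 13.1% and 7.58% at sites also present in control.

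The direction of the Pol II difference turned with length in both classes of new sites. At new sites without H3K9ac of 199 bp, 3.37% met control Pol II and 2.25% butyrate Pol II. The shares were 3.73% and 3.01% at 300 to 399 bp, and 5.98% and 5.94% at 500 to 699 bp. At 700 to 999 bp, butyrate Pol II was the more frequent, with 10.7% (9.36 to 12.2) against 7.47% (6.36 to 8.75). New sites with H3K9ac met control and butyrate Pol II at 7.05% and 5.02% at 199 bp and at 12.8% and 18.4% at 700 to 999 bp. For sites also present in control, the shares were 3.60% and 3.25% at 199 bp, with overlapping intervals, and 5.39% and 9.72% at 700 to 999 bp. The longest site with butyrate Pol II lay on chromosome 2 from 90294544 to 90295533 (990 bp), 1.43 kb from the nearest control H3K27ac peak. The longest with Pol II in both conditions was on chromosome 19 from 33999260 to 34000237 (978 bp). Coordinates are those of the lists (cattle assembly UMD3.1, counted from 1), and genes at them are not given because no annotation of that assembly was used here.

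**Figure D2:**
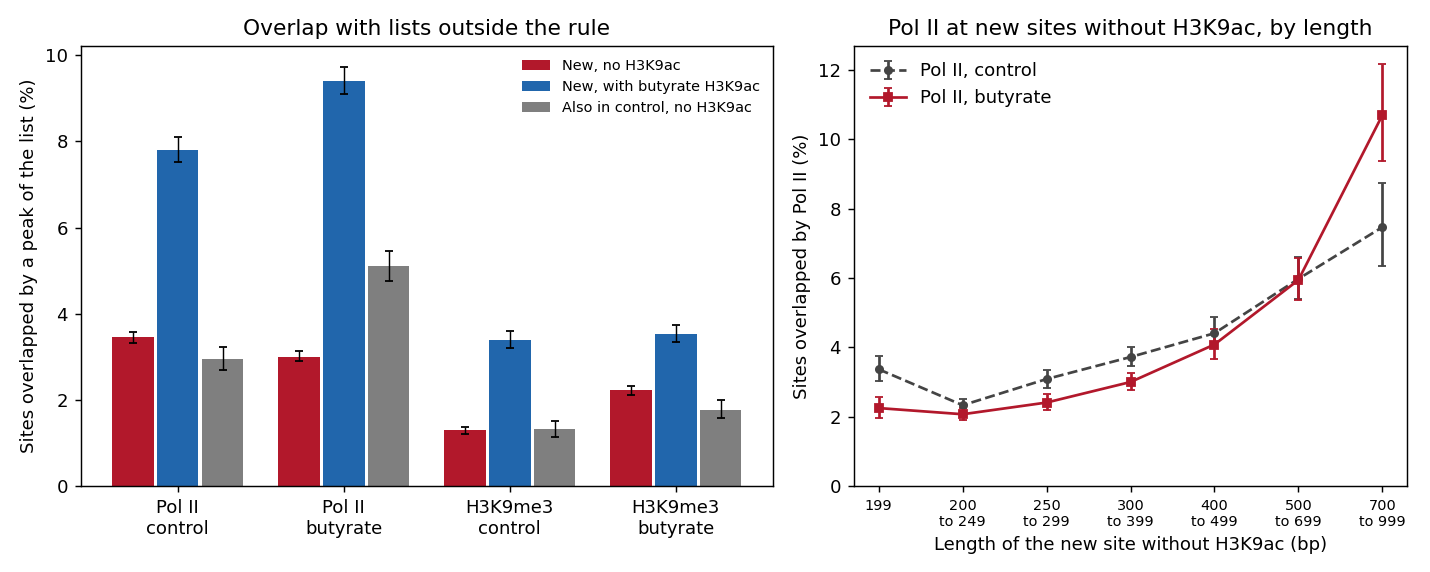
Left, share of sites overlapped by a peak of 4 lists (%, y axis) in 3 classes of butyrate H3K27ac peaks; right, share of new sites without H3K9ac overlapped by Pol II (%) by site length (bp). Bars and points are shares in 1 library each and error lines are 95% Wilson intervals; butyrate Pol II is at 3.01%, 9.40% and 5.10% from left to right, and the right-hand lines cross near 500 to 699 bp.

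H3K9me3 met fewer of these sites than of new sites with H3K9ac, although it covered more of their bases than of the genome. A butyrate H3K9me3 peak overlapped 1900 of them (2.22%, 2.13 to 2.32), against 2.80% of all butyrate H3K27ac peaks, 3.54% of new sites with H3K9ac and 1.77% of sites also present in control. A control H3K9me3 peak overlapped 1109 (1.30%, 1.22 to 1.38), against 2.42% of all, 3.39% and 1.33%. Butyrate H3K9me3 covered 1.30% of the bases of new sites without H3K9ac and 0.908% of the genome span, and control H3K9me3 0.723% and 0.235%. Pol II likewise covered more of these bases than of the span, with 1.79% and 0.319% after butyrate and 1.92% and 0.522% in control. Butyrate Pol II covered more still at new sites with H3K9ac (4.85%) and at sites also present in control (2.88%). For control Pol II the values in these classes were 3.69% and 1.49%. In the other classes H3K9me3 was also above the span, with 1.68% (butyrate) and 1.59% (control) at new sites with H3K9ac and 0.941% and 0.691% at sites also present in control. The share of sites with butyrate H3K9me3 lay below that of new sites with H3K9ac on 22 chromosomes, and the share with control H3K9me3 on all 30. Against sites also present in control, the control share could not be told apart (log2 ratio -0.03, -0.24 to 0.18). The 140 sites with H3K9me3 in both conditions made up 7.37% of those with butyrate H3K9me3. That share was 11.4% over all butyrate H3K27ac peaks and 8.15% at sites also present in control. The longest of the 140 sites was on chromosome 1 from 106992082 to 106992944 (863 bp). The longest with butyrate H3K9me3 was on chromosome 25 from 22487653 to 22488638 (986 bp).

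Pol II and H3K9me3 peaks coincided at some of the sites. Of the new sites without H3K9ac that met butyrate H3K9me3, 5.84% (4.87 to 6.99) also met butyrate Pol II, above the 3.01% of the whole class. In control the corresponding shares were 11.9% (10.1 to 13.9) and 3.45%. After butyrate the coincidence was 15.8% at new sites with H3K9ac, against 9.40% of that class. At sites also present in control it was 12.6%, against 5.10%. With the control lists the coincidence was 20.5% at new sites with H3K9ac, against 7.81% of that class. It was 20.8% at sites also present in control, against 2.95%. These shares were not weighted to equal lengths. All lists were called against the same input library, and its part in these overlaps was not tested. Neither Pol II nor H3K9me3, in either condition, was listed at 77694 of the new sites without H3K9ac (90.9%, 90.7 to 91.1). The share was 90.1% (89.6 to 90.6) at sites also present in control and 79.3% (78.9 to 79.7) at new sites with H3K9ac.

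The position of the sites was then described relative to chromatin that was acetylated already. The rule fixes that they do not touch a control H3K27ac or any H3K9ac peak, so distances to these lists are a description. A list with more peaks also tends to lie nearer by its number alone. The median distance to the nearest control H3K27ac peak was 3.63 kb, with quartiles at 1.11 and 10.1 kb, and 23.2% of the sites were less than 1 kb away. Among the acetyl lists the medians followed list size. Butyrate H3K9ac (115104 peaks) was at 2.10 kb, control H3K27ac (94603) at 3.63 kb and control H3K9ac (74114) at 5.81 kb. Size did not order all lists. Butyrate Pol II (31225) was at 10.3 kb and the larger control Pol II list (56225) at 10.7 kb, while butyrate H3K9me3 (89478) was at 18.5 kb. Butyrate Pol II, which the rule did not use, was nearer to new sites with H3K9ac (6.60 kb, 6.43 to 6.75) than to those without (10.2 to 10.4). Some sites missed a peak narrowly. A control H3K27ac or any H3K9ac peak was within 100 bp of 6.26% of the sites and within 500 bp of 30.2%, which leaves 59642 sites with none of these peaks within 500 bp. When peaks shorter than 300 bp were dropped from both H3K27ac lists and the rule was applied again, 38144 sites met it. A site that overlapped only a dropped control peak then counted as new. The median distance to the control H3K27ac peaks that were kept was 8.81 kb. The full control list had a median length of 288 bp, so this distance is to a much smaller list.

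**Figure D3:**
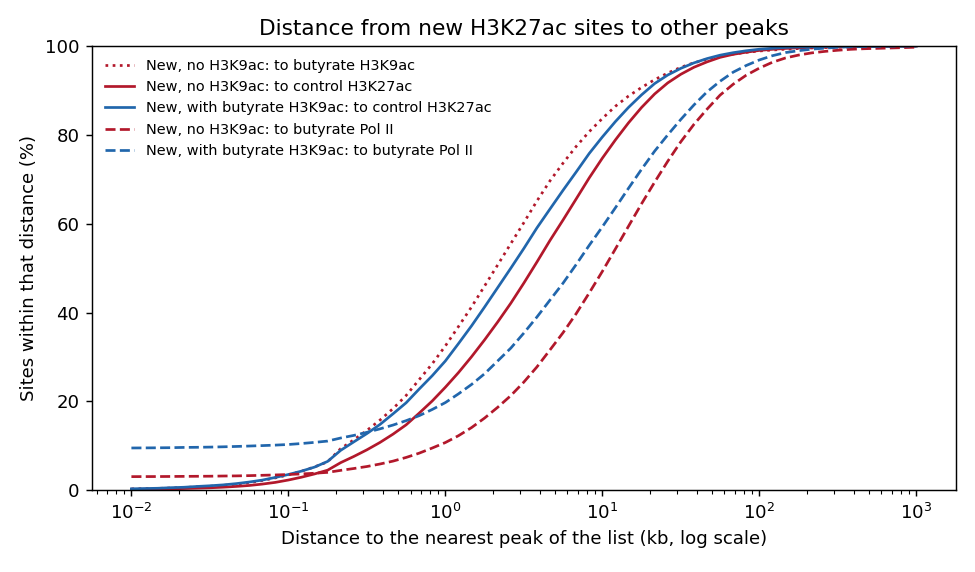
Share of sites (%, y axis) whose nearest peak of a list lies within a distance (kb, log scale, x axis), for new sites without H3K9ac in red and new sites with H3K9ac in blue. The red dotted line (butyrate H3K9ac, median 2.10 kb) lies left of the red solid line (control H3K27ac, median 3.63 kb), and both red lines for control H3K27ac and Pol II lie right of the blue ones.

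Pol II at new sites without H3K9ac was also compared by their distance from control H3K27ac. Control Pol II met 2.66% of the sites within 0.5 kb and 4.04% at 2 to 5 kb, and fell back to 2.05% at 50 to 100 kb. Butyrate Pol II met 3.20% within 0.5 kb and 2.38% (1.77 to 3.17) at 50 to 100 kb. Few sites were isolated. More than 100 kb from any control H3K27ac or H3K9ac peak lay 569 sites (0.666%), against 121 new sites with H3K9ac (0.370%). On chromosome X 139 of the 569 were found, which is 7.81% of the sites there. The most remote of the 569 was on chromosome 2 from 76513561 to 76513765 (205 bp), 1994 kb from the nearest control acetyl peak.

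The nearest other butyrate H3K27ac peak was at a median of 0.552 kb from new sites without H3K9ac, farther than in any other class. The medians were 0.356 kb for new sites with H3K9ac and 0.319 kb for sites also present in control. For 57.7% of new sites without H3K9ac that neighbour was of the same class, which made up 45.6% of the list. New sites with H3K9ac had their own class as neighbour in 28.4%, against 17.4% of the list, so a neighbour of the same class was not particular to the sites without H3K9ac. When sites at most 12500 bp apart were joined, 81.6% of new sites without H3K9ac (81.3 to 81.9) fell into 8260 chains of 3 or more, and 9.72% stood alone. With gaps of at most 5 kb the share in chains was 62.2%. In the smaller classes, 56.9% of new sites with H3K9ac and 31.4% of sites also present in control were in chains of their own kind, but a class with fewer sites forms fewer chains. A control H3K27ac peak lay inside 68.3% of the chains and a butyrate H3K9ac peak inside 75.5%, while 1223 chains (14.8%) spanned neither control H3K27ac nor H3K9ac of either condition. Of the 668 chains with 20 or more sites, 662 spanned a control H3K27ac peak and 632 a butyrate Pol II peak. In chains of 3 to 5 sites the shares were 51.7% and 31.5%. The chains with 20 or more sites were also longer, with a median span of 80.35 kb against 17.18 kb for all chains. A longer stretch meets a peak more easily, and no background share was computed for chains of any size. These counts therefore cannot separate chain length from a property of the large chains.

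The chain with most sites was on chromosome 15 from 40328494 to 40539217, where 99 new sites without H3K9ac covered 38.0 of 210.7 kb. It also held 76 control H3K27ac peaks, 44 butyrate H3K9ac peaks and 9 butyrate Pol II peaks, and 2 of its 99 sites met butyrate Pol II. A site of 999 bp, from 40482447 to 40483445, lay in this chain and shared the greatest length with a site on chromosome 1 from 46413178 to 46414176. The site next in length was on chromosome 3 from 14101813 to 14102810 (998 bp). Chains of 98 and 93 sites were on chromosome 1 from 96012299 to 96239021 and on chromosome 17 from 60914540 to 61149991.

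**Figure D4:**
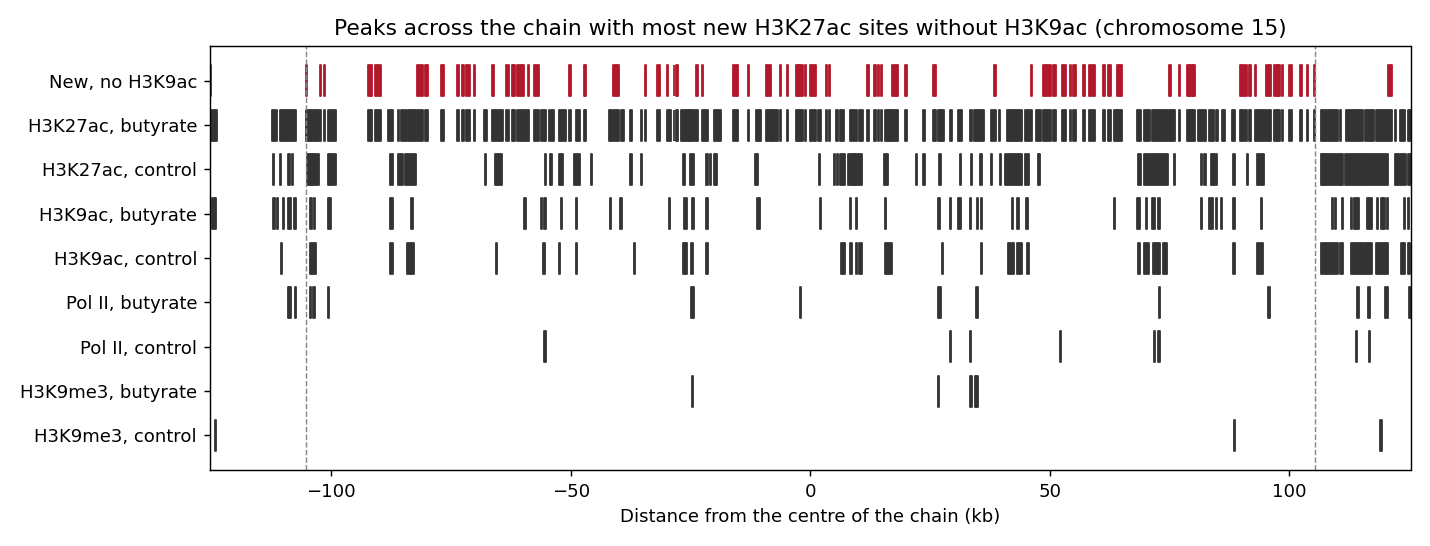
Peaks of the 8 lists and the new sites without H3K9ac (red) over the chain with most sites, by distance from its centre (kb, x axis); dashed lines are the ends of the chain. Its 99 red sites lie between and beside the 76 control H3K27ac peaks, and few Pol II or H3K9me3 peaks are present.

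In position order, the butyrate H3K27ac list held unbroken runs of these sites, and 34.1% of them were in runs of 5 or more. A class that makes up 45.6% of the list forms some runs by its number alone, and no background share was computed. The longest runs had 26 sites and occurred on 2 chromosomes. On chromosome 5, from 109653735 to 109768039, a run with a median site length of 248 bp and 1 gap of 60.8 kb held no peak of any other list. A control H3K27ac peak lay 0.495 kb from this run, and the nearest butyrate Pol II peak 27.1 kb. On chromosome 24, from 25584908 to 25640673, the run lay 14.6 kb from the nearest control acetyl peak and had 1 butyrate H3K9ac peak, 1 butyrate Pol II peak and 2 control Pol II peaks within its ends.

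Over the genome, 2311 of 2677 windows of 1 Mb had at least 1 new site without H3K9ac, with a median of 23 per window. The fullest windows were 79000001 to 80000000 of chromosome 1 with 198 sites, 96000001 to 97000000 of chromosome 1 with 173 and 30000001 to 31000000 of chromosome 22 with 170. Numbers per window followed those of the other active lists. As a description over 2677 windows, which share gene content and mappability among lists, Spearman's rho was 0.87 with control H3K27ac, 0.91 with new sites with H3K9ac, 0.83 with butyrate Pol II and 0.24 with butyrate H3K9me3.

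The X chromosome stood apart from the autosomes. New sites without H3K9ac were 64.8% (63.0 to 66.6) of its butyrate H3K27ac peaks, against 40.3% on chromosome 5 to 49.1% on chromosome 18 among autosomes. Per Mb they were fewer, at 12.0 on X against 24.2 on chromosome 29 to 53.0 on chromosome 19. The share on X depends on the lists that the rule excludes. On X these held 1583 control H3K27ac, 852 control H3K9ac and 601 butyrate H3K9ac peaks. Their part in the share on X was not tested. Of 1780 sites on X, 10 met butyrate Pol II (0.562%, 0.305 to 1.03), 4 control Pol II, 4 butyrate H3K9me3 and 2 control H3K9me3. The butyrate Pol II share was 3.06% over autosomes, from 2.22% on chromosome 11 to 3.80% on chromosome 26. Butyrate Pol II also met few other peaks on X. It met 2.80% of all 2746 butyrate H3K27ac peaks there, which include the 1780 sites, and 1.43% of sites also present in control. Over all chromosomes these shares were 9.41% and 5.10%. At the 111 new sites with H3K9ac on X the share was 6.31%, against 9.40% over all chromosomes. H3K9me3 met 4.50% of these 111 sites in each condition, against 3.39% (control) and 3.54% (butyrate) of the class over all chromosomes. No interval was computed for either mark at so few sites, so neither direction can be read. The distance to control H3K27ac was 9.45 kb on X and 3.59 kb on autosomes, and X had the fewest peaks per Mb of all 30 chromosomes in each of the 8 lists. The part of that lower density in the low overlap on X was not tested.

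**Figure D5:**
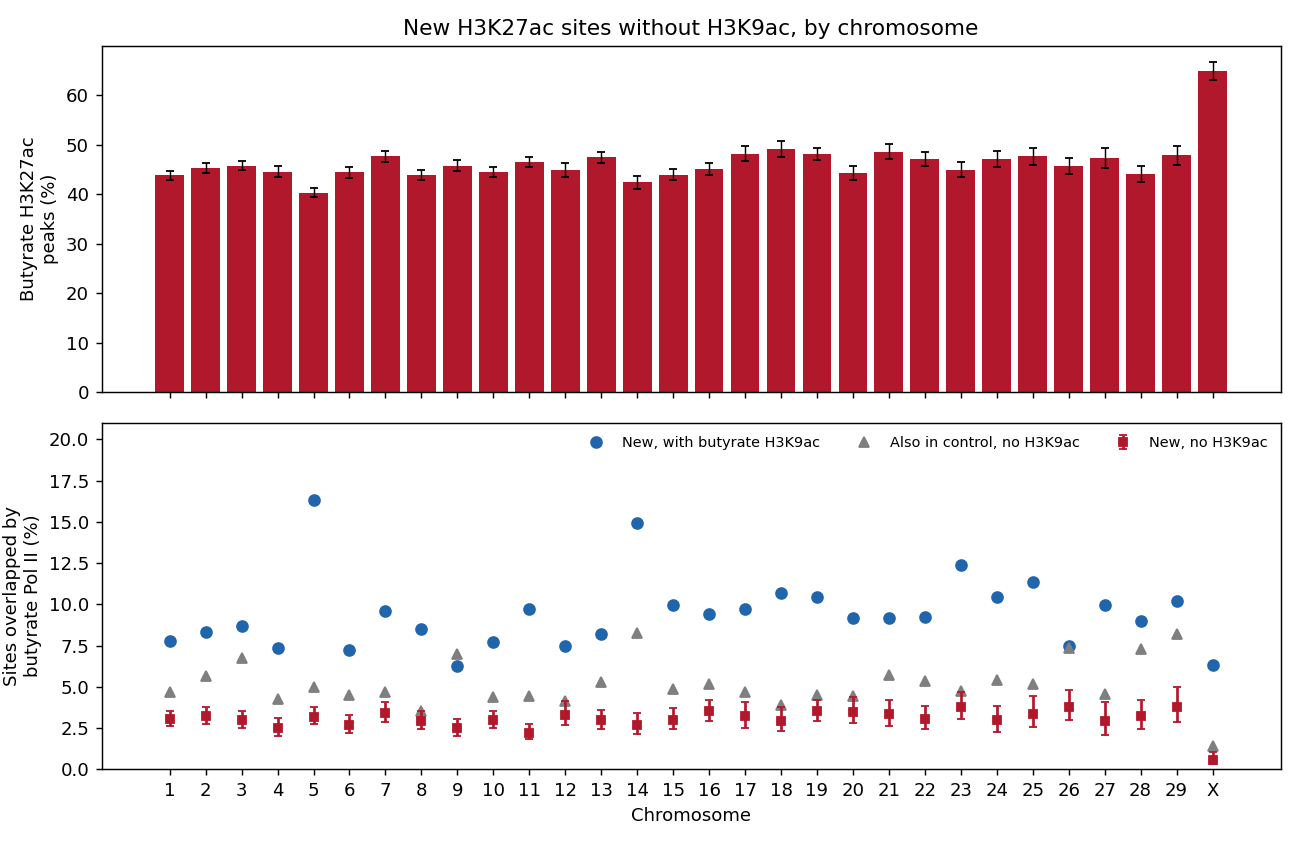
Top, new sites without H3K9ac as share of the butyrate H3K27ac peaks of each chromosome (%); bottom, share of 3 classes of sites overlapped by butyrate Pol II (%). Error lines on red are 95% Wilson intervals; X is highest at 64.8% in the top panel, and the red points lie lowest on every chromosome in the bottom panel.

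Chromosomes 5 and 14 had the most peaks per Mb in both Pol II lists and both H3K9me3 lists, and they were examined separately after the data were seen. New sites with H3K9ac met butyrate Pol II at 15.8% there and at 8.77% on the other autosomes, and control H3K9me3 at 11.4% and 2.59%. New sites without H3K9ac met butyrate Pol II at 3.01% (2.63 to 3.43) on these chromosomes and at 3.07% (2.95 to 3.19) on the other autosomes. Their shares with control Pol II were 4.63% and 3.42%, and with control H3K9me3 2.55% and 1.21%. Without chromosomes 5 and 14, the log2 ratio of butyrate Pol II shares between new sites without and with H3K9ac was -1.54.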

How the data were processed

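The files were peak lists, 1 per library, deposited by the authors as peak positions (chromosome and base-pair boundaries) without a score. Per the labels, reads of 75 nt were trimmed with Trim Galore 0.4.1, aligned to UMD3.1 with BWA and called with MACS2. The methods of the study add that multiply placed and poorly matching reads were dropped and that each library was called at default settings against the input of the MDBK cells, which was not analysed here. Read depth is not in the lists and was not used, although the number of peaks rises with it.

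Starts were read as counted from 0, and 1 bp was added to printed starts. The shortest end minus start was 199 bp in all lists. Overlap meant at least 1 bp. Shares have 95% Wilson intervals, medians exact binomial intervals, and ratios of shares an interval from the log of independent binomials. Peaks are not independent of one another. No test between conditions was run, since each group had 1 library. To compare shares at equal lengths, the other class was weighted to the length bins of the sites described. Regions were named by a fixed rule: the longest sites, the largest chains, runs and windows, the most remote site, and the longest sites with Pol II or H3K9me3. Members, classes and rules were chosen with earlier results of these data known. On simulated data, overlaps were checked against bedtools 2.31.1 and distances against a direct search. Scripts ran under Python 3.11.15 with matplotlib 3.10.9, scipy 1.17.1 and numpy 2.4.6. A gene table of another cattle assembly was not used, and without a genome of UMD3.1 no sequences are printed.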

Additional observations from a re-analysis of the deposited data

How the results depend on the processing

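No paired analysis was possible because every group holds a single library. Of 69 alternative values, 34 stayed inside the 95% interval of the value reported and 35 moved out of it, and neither of the log2 ratios of butyrate Pol II shares changed sign. The log2 ratios of control Pol II and H3K9me3 shares were not recomputed. Leaving out chromosomes 5 and 14 was added after seeing the data. The cause of the shifts was not tested beyond what each setting removes.

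In 1 setting, H3K27ac peaks under 300 bp were dropped in both conditions and the rule was applied again. New sites without H3K9ac were then 36.19% of the list, with a median length of 397 bp and 63.51% in chains. They lay 8.812 kb from the control H3K27ac peaks that were kept. They met butyrate Pol II at 4.454%, control Pol II at 4.501% and butyrate H3K9me3 at 2.504%, and the log2 ratios of butyrate Pol II shares were -1.528 against new sites with H3K9ac and -0.4187 against sites also present in control. With the other 3 lists widened by 500 bp, the corresponding values were 31.82% of the list, 5.149 kb, 73.95% in chains, 2.708% with butyrate Pol II, 2.331% with butyrate H3K9me3, and log2 ratios of -1.508 and -0.5977. A length limit of 500 bp gave 41.34% of the list, a median of 259 bp, 3.699 kb, 79.16% in chains, 2.596% and 3.157% with butyrate and control Pol II, and a log2 ratio of -1.454 against new sites with H3K9ac, and no length limit gave -1.738. An overlap of at least 50% gave 1.612% with butyrate Pol II, 1.841% with control Pol II, 1.392% with butyrate H3K9me3 and a log2 ratio of -1.217. Autosomes alone gave 45.29% of the list and 81.99% in chains, and a chain gap of 5 kb gave 62.2%. Without chromosomes 5 and 14 the values were 46.04% of the list, 2.107% with butyrate H3K9me3, a log2 ratio of -1.541 against new sites with H3K9ac and 3.729 kb. Peak number and length both depend on sequencing depth, which the lists do not give.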

Other observations

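A further 6715 butyrate H3K27ac peaks under 1000 bp had neither control H3K27ac nor butyrate H3K9ac but lay on a control H3K9ac peak, so that H3K9ac was listed before and H3K27ac after butyrate. Their median length was 308 bp, and butyrate Pol II met 8.21% of them (95% Wilson interval 7.57 to 8.89), nearer to new sites with H3K9ac (9.40%) than to new sites without (3.01%). Control Pol II met 5.48% (4.96 to 6.05).

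The rows of the butyrate H3K27ac list are not in position order, and what orders them is not stated. New sites without H3K9ac made up 22.3% of the first 10% of the rows, 60.2% of the rows from 40% to 50% and 53.1% of the last 10%. The median length of all peaks was 596 bp in the first 10% and 282 bp in the last.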
